A study of Homo sapiens with 28 samples.

Results

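Chromosome 5 held 2225 of the 32972 open regions that were defined across 28 peak lists from AN3CA cells, an established human endometrial carcinoma line. The lists came from ATAC-seq, an assay in which a transposase inserts adapters into DNA that nucleosomes leave exposed. Of 1245967 deposited peaks on chromosomes 1 to 22 and X, 81561 lay on chromosome 5. Each list was shortened genome-wide to the 19433 peaks of highest -log10 p, as many as the shortest list holds, which left 34075 chromosome 5 peaks of 544124. Overlapping peaks were merged, and merged regions present in at least 2 lists were kept. The regions were therefore chosen by the measured -log10 p-values of these same libraries. A chromosome 5 region was called in a library when a peak of the trimmed list overlapped it by at least 1 bp. On chromosome 5, 386 merged regions seen in 1 list were left out, and 254 of the kept regions stood in exactly 2 lists. The last chromosome 5 peak inside the length limit had a -log10 p between 5.42 and 28.7 depending on the library, with a median of 16.5, and the first outside had one between 6.48 and 28.6 in the 27 lists that went on.

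The cells carried wild-type ARID1A (ARID1A_WT, 2 libraries) or wild-type ARID1B (ARID1B_WT, 2 libraries), 1 of 10 altered forms with 2 libraries each, or an empty vector (Empty_vector, 4 libraries). The ARID1A forms were ARID1A_AQGscramC1C2, ARID1A_CBR, ARID1A_DBDmut, ARID1A_DDX4, ARID1A_Y42S and ARID1A_delIDR1. The ARID1B forms were ARID1B_A457_G461del, ARID1B_Block13del, ARID1B_Block9del and ARID1B_S320_G327del. Per the labels, CBR and delIDR1 are truncations, DBDmut carries a mutated ARID domain, and DDX4 is a hybrid with the disordered region of another protein. In 10 libraries of 5 constructs (AQGscramC1C2, Y42S, A457_G461del, Block13del and Block9del) the genotype label names the empty vector, while the title and the peak names carry the construct. Groups follow the titles. The labels do not say whether replicates were separate cultures, so each p-value refers to the spread among these libraries, and that spread may be technical. Date codes in the peak names divide the libraries into 6 runs. ARID1A_WT, DBDmut, delIDR1 and CBR share runs A and B with 2 empty vector libraries, and ARID1B_WT and S320_G327del share run C with the other 2. The remaining 6 constructs stand in runs D (DDX4 alone), F (AQGscramC1C2 alone) and E, which hold no empty vector library, so a difference of theirs from empty vector cannot be told apart from one of runs.

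ARID1A and ARID1B are alternative subunits of the canonical BAF complex, a remodeler that uses ATP to slide or evict nucleosomes and is known for keeping enhancers open. Each has a DNA-binding ARID domain, a long intrinsically disordered stretch and a C-terminal part through which it joins the complex. ARID1A is among the genes most often inactivated in endometrial carcinoma. Chromosome 5 has a short arm (5p), known for the telomerase gene TERT, and a longer arm (5q), known for APC and for clusters of interleukin and protocadherin genes. The widest stretch without a peak in any whole list, chr5:45800104-49615903 (hg19, 3.82 Mb), was taken as the boundary of the arms. By it, 353 regions lay on 5p and 1872 on 5q. No gene was assigned to a region, since an annotation of the build of the lists was not used here.

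Chromosome 5 took a larger part of the most significant peaks in wild-type cells than in empty vector cells. ARID1A_WT had 1289 and 1268 chromosome 5 peaks in the trimmed lists, ARID1B_WT had 1392 and 1407, and the empty vector libraries had 1140, 1139, 1132 and 1101. All 4 wild-type libraries lay above all 4 empty vector libraries. As a share of the trimmed list this was 6.89% ± 0.364 in wild type and 5.80% ± 0.0944 in empty vector (SD, n = 4 each). The difference of 1.09 percentage points gave p = 0.0286 in an exact two-sided permutation test, the smallest that 70 splits allow, and 0.0857 after Benjamini-Hochberg adjustment over 3 tests, which misses 0.05. ARID1B_S320_G327del had 1457 and 1419 chromosome 5 peaks, more than any wild-type library, and ARID1B_A457_G461del had 1344 and 1350. The other 8 altered constructs held between 5.73% and 6.22% of their peaks on chromosome 5. AQGscramC1C2 and Block9del lay within the range of the empty vector, and both libraries of the other 6 lay above it.

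The difference in share depended on how peaks were ranked. With lists ranked by fold enrichment, chromosome 5 held 5.66% and 5.84% of the peaks of ARID1A_WT and 6.15% and 6.18% of those of ARID1B_WT, against 5.57%, 5.56%, 5.94% and 5.45% in empty vector. The groups then overlapped through ARID1A_WT. The difference was 0.324 percentage points (exact two-sided permutation p = 0.143). Of the whole lists, chromosome 5 held 6.82% ± 0.0549 of the peaks in wild type and 6.11% ± 0.394 in empty vector (SD, n = 4 each), and the groups did not overlap. That difference was 0.712 percentage points (exact two-sided permutation p = 0.0286). The wild-type lists were also longer, with 59776 to 76530 peaks against 24527 to 49468 in empty vector.

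**Figure D1:**
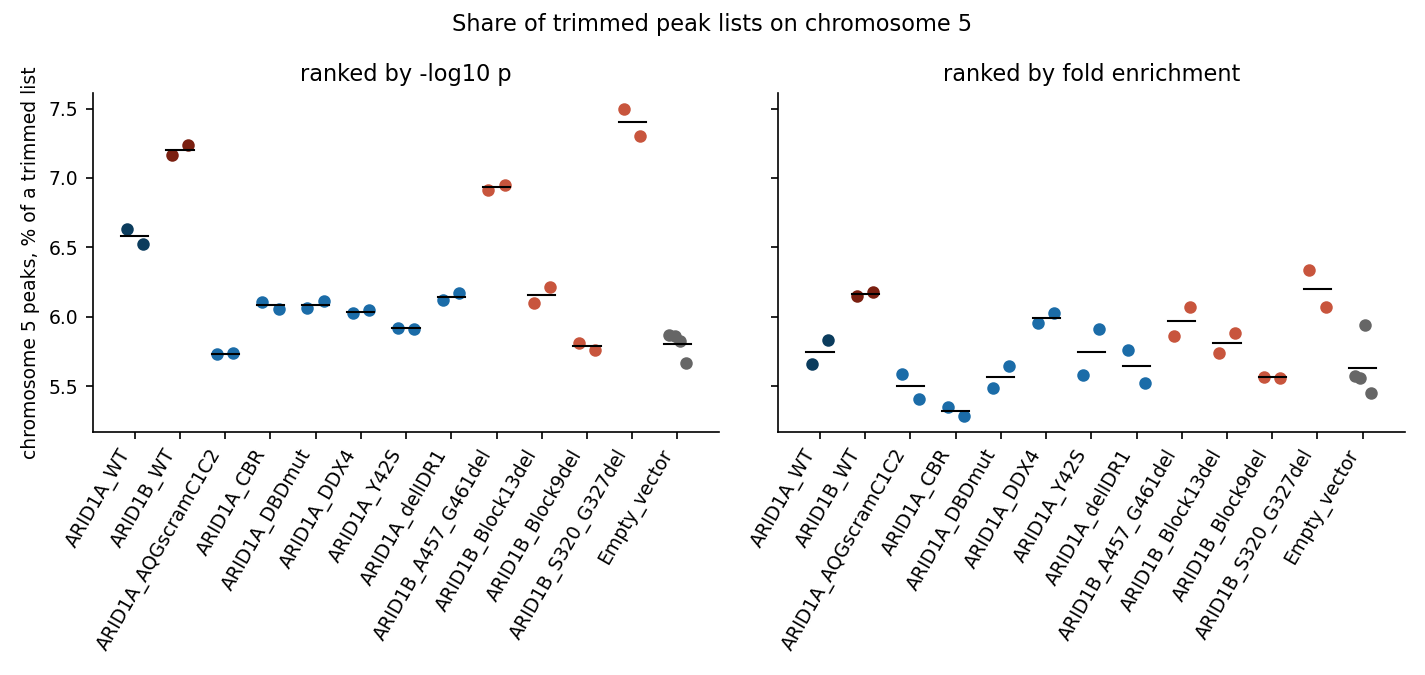
Percent of each trimmed list that lies on chromosome 5, with lists ranked by -log10 p (left) or by fold enrichment (right). Each point is 1 library and each line a group mean, with wild type in dark shades, ARID1A variants in blue, ARID1B deletions in red and empty vector in grey. Ranked by -log10 p, wild type, A457_G461del and S320_G327del stand above 6.5% and all other groups below 6.3%, a gap that is not seen when lists are ranked by fold enrichment.

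A region called by all 4 wild-type and no empty vector library is named gained here, and the opposite is named lost. These sets were selected on the wild-type and empty vector lists, so their levels there are a description. On chromosome 5, 228 regions were gained, 10.2% of its regions, against 5.78% of all regions genome-wide and 5.45% of those outside chromosome 5. This was the highest percent of the 23 chromosomes, followed by 8.86% on chromosome 7 and 8.18% on chromosome 10. Lost regions numbered 37, or 1.66% of chromosome 5, against 2.27% genome-wide, an order that turned round in fold-ranked lists. The long arm held 204 of the gained regions (10.9% of its own) and the short arm 24 (6.80%). Of the lost regions, 35 lay on 5q (1.87% of its own) and 2 on 5p (0.567%). A further 600 regions, 27.0% of chromosome 5, were called in all 28 trimmed lists. That compares with 30.3% outside chromosome 5.

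The ranks of chromosome 5 peaks were unusual in every library. Chromosome 5 supplied 12.3% of the top 10% of ranks but 6.26% of the whole trimmed list, a mean ratio of 1.98 over 28 libraries (range 1.64 to 2.23). The ratio was 1.85 in wild type and 2.10 in empty vector, so it was present without an ARID1 protein from a vector as well. The 5 chromosomes with the highest ratios (5, 7, 10, 6 and 8) were also the 5 with the highest percent of gained regions. At the same time the median fold enrichment of chromosome 5 peaks was below that of the other chromosomes in 27 of 28 libraries. A -log10 p grows with the number of reads under a peak as well as with its fold enrichment, and read counts are not part of these lists. The part of this spread of ranks in the count of gained regions was not tested.

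With lists ranked by fold enrichment the mean ratio for chromosome 5 was 0.957. Its gained regions were then 143 of 2567, or 5.57%, against 4.76% genome-wide, the fifth of 23 chromosomes. Of the 228 gained regions, 75 (32.9%) still met the definition when called in the fold-ranked lists. Outside chromosome 5 this held for 731 of 1677 (43.6%). In fold-ranked lists the lost regions of chromosome 5 numbered 60, or 2.34%, above the 1.51% genome-wide. Lists cut to the same number of chromosome 5 peaks gave 77 lost (3.74%) and 168 gained (8.16%). In the whole lists chromosome 5 had 1366 gained regions of 6694 (20.4%, against 18.2% genome-wide) and was the third of 23 chromosomes. The first place of chromosome 5 was thus not kept in fold-ranked or whole lists, while its percent stayed above the genome-wide one in both.

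**Figure D2:**
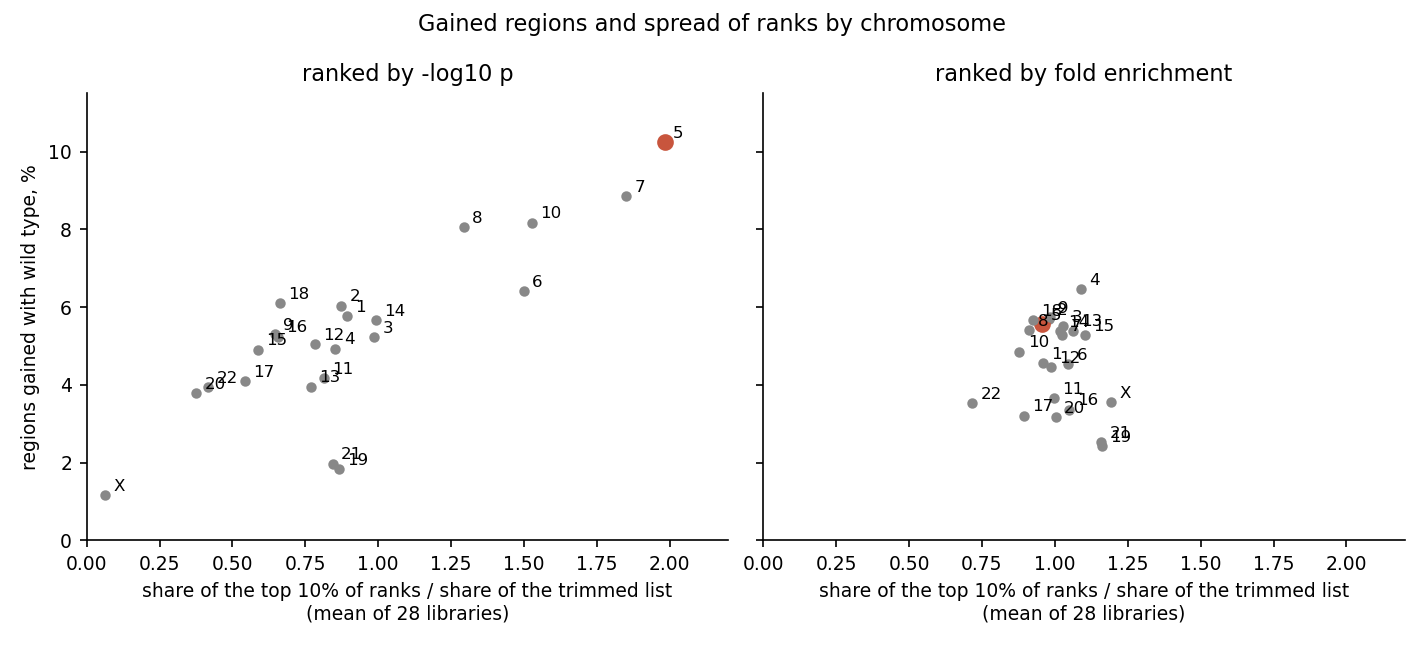
Percent of the regions of each chromosome that were gained with wild type (vertical axis) against the share of the chromosome among the top 10% of ranks divided by its share of the trimmed list (horizontal axis, mean of 28 libraries). Points are the 23 chromosomes with chromosome 5 in red, with peaks ranked by -log10 p on the left and by fold enrichment on the right. Chromosome 5 is at 1.98 and 10.2% on the left and at 0.957 and 5.57% on the right, within the other chromosomes.

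Gained and lost regions were also looked up in the whole lists of the opposite group, which differ in length. Of the 228 gained regions, 171 (75.0%) had no peak in any empty vector library even in the whole lists, and 10 had one in all 4. Outside chromosome 5 the first share was 71.6%. Of the 37 lost regions, 33 (89.2%) had a peak in all 4 wild-type libraries in the whole lists, and 0 of the 37 were without one in every wild-type library. Outside chromosome 5 the share with a peak in all 4 was 82.3%. When each empty vector library was scored on gained regions chosen without it, its whole list held a peak at 18.3% and 23.1% of them in the libraries with 45227 and 49468 peaks, and at 6.11% in each of those with 24527 and 28314. The wild-type lists were longer than all of these, so the gained and lost shares were not compared with each other. The part of list length in them was not tested.

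Each wild-type protein was also set against the empty vector of its own runs. ARID1A_WT against the empty vector of runs A and B gave 320 gained chromosome 5 regions (14.4%, against 9.19% genome-wide) and 149 lost (6.70%, against 6.91%). ARID1B_WT against the empty vector of run C gave 442 gained (19.9%, against 12.6%) and 159 lost (7.15%, against 9.42%). Chromosome 5 had the highest gained percent of 23 chromosomes in both, ahead of chromosome 8 with 12.6% for ARID1A_WT and of chromosome 7 with 17.4% for ARID1B_WT. The 228 regions common to both made up 71.2% of the ARID1A_WT set and 51.6% of the ARID1B_WT set, against 62.9% and 46.0% over all chromosomes. On 5p alone, 33 regions were gained with ARID1A_WT (9.35%, close to the 9.19% genome-wide) and 57 with ARID1B_WT (16.1%, against 12.6%). Whether the larger ARID1B_WT set comes from the protein or from run C cannot be told apart.

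The short arm took a slightly smaller part of chromosome 5 peaks in wild type. In the trimmed lists the short arm held 14.4% ± 0.511 of the chromosome 5 peaks in wild type and 15.3% ± 0.665 in empty vector (SD, n = 4 each). The difference was -0.884 percentage points, and the exact two-sided permutation p was 0.114, before and after adjustment. The groups overlapped, since ARID1B_WT 1 had 15.1% and Empty_vector 3 had 14.4%. The sign turned in the whole lists, with 16.9% in wild type and 15.9% in empty vector.

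Along the chromosome, regions were counted in 1 Mb windows by their midpoints, and 169 windows held a region. In 42 windows (24.9%, against 11.9% of windows genome-wide) every wild-type library called more regions than every empty vector library. Of these, 37 lay among the 127 windows of 5q and 5 among the 42 windows of 5p. In 5 windows (2.96%, against 8.42%) every wild-type library called fewer. Gained regions fell in 85 windows and lost regions in 29, and 22 windows held both. The 22 windows with 4 or more gained regions were all on 5q and held 114 of the 228. The arms also differed in density, since 37 windows of 5q and 5 of 5p held 20 or more regions. The part of this density in where gained regions gather was not tested. With lists ranked by fold enrichment 22 windows were higher (12.6%, against 8.89% genome-wide), of which 13 were among the 42, and 8 were lower (4.60%, against 4.04%). With each list cut to the same number of chromosome 5 peaks, 21 windows were higher and 17 lower.

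The window from 171 to 172 Mb held the most gained regions, 9 of 31. ARID1A_WT called 18 and 19 regions there and ARID1B_WT 22 and 22, against 11, 10, 9 and 11 in empty vector. S320_G327del called 8 of the 9 gained regions in both libraries and A457_G461del 7. DBDmut called 3 and delIDR1 and Block13del 2 each, and the other 5 constructs called 0 in both libraries. The neighbouring window from 170 to 171 Mb went the other way in part, with 3 lost and 0 gained regions and with 10, 10, 12 and 12 regions in wild type against 15, 16, 12 and 12 in empty vector, which overlapped.

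The window from 55 to 56 Mb held 8 gained regions of 41. The trimmed lists called 23, 19, 24 and 28 regions in wild type against 11 in each empty vector library. In the whole lists the counts were 37 or 38 in wild type and 14 to 27 in empty vector. Of the 8 gained regions, 4 had no empty vector peak in the whole lists. Here DBDmut and delIDR1 both called 5 of the 8, beside 8 for S320_G327del and 7 for A457_G461del. From 73 to 74 Mb 7 of 25 regions were gained, with 13, 14, 17 and 15 regions in wild type against 3, 3, 4 and 4 in empty vector. This was the sharpest relative contrast of the windows named, and it was also seen in the whole lists, with 23 to 25 regions in wild type and 4 or 5 in empty vector.

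Other windows with many gained regions were called by different numbers of constructs. From 133 to 134 Mb, 7 regions were gained, of which A457_G461del called 6, S320_G327del 5, delIDR1 4, DBDmut 3, and CBR and Block13del 2 each. From 150 to 151 Mb, 7 were gained, of which S320_G327del called 7, A457_G461del 6, delIDR1 3 and Y42S 2 in both libraries. DDX4, Block13del and Block9del called 1 each there, and DBDmut called 0. From 77 to 78 Mb, 6 were gained, of which A457_G461del called 6, S320_G327del 5, DBDmut and Block13del 4 each and delIDR1 2. These are counts of a few neighbouring regions, and differences between windows were not tested.

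The lost regions were most frequent from 58 to 59 Mb, with 4 lost of 38 regions. Wild-type libraries called 13, 14, 15 and 16 regions there and empty vector libraries 21, 22, 23 and 20. In the same window DDX4 averaged 25 regions, Y42S 23.5 and S320_G327del 15. Whole-list counts were 35 to 37 in wild type and 32 to 35 in empty vector, so the contrast was one of rank. From 116 to 117 Mb, 2 of 10 regions were lost, with 2, 2, 4 and 4 regions in wild type against 6, 5, 5 and 6 in empty vector. The window from 137 to 138 Mb held 2 lost and 3 gained regions, and its counts overlapped.

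Of the 5 windows with the most regions, 1 was that from 55 to 56 Mb, described above. In the trimmed lists it had the largest difference of any chromosome 5 window. The means were 23.5 regions in wild type and 11 in empty vector. From 141 to 142 Mb there were 54 regions, with 33 to 37 called in wild type and 33 to 36 in empty vector. From 176 to 177 Mb there were 43, with 32 to 36 in wild type and 33 or 34 in empty vector. Both sets of counts overlapped. In the other 2, from 139 to 140 Mb and from 149 to 150 Mb, the groups were apart, with 28 to 31 regions in wild type against 24 or 25 in empty vector, and with 26 to 28 in wild type against 21 to 24 in empty vector.

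**Figure D3:**
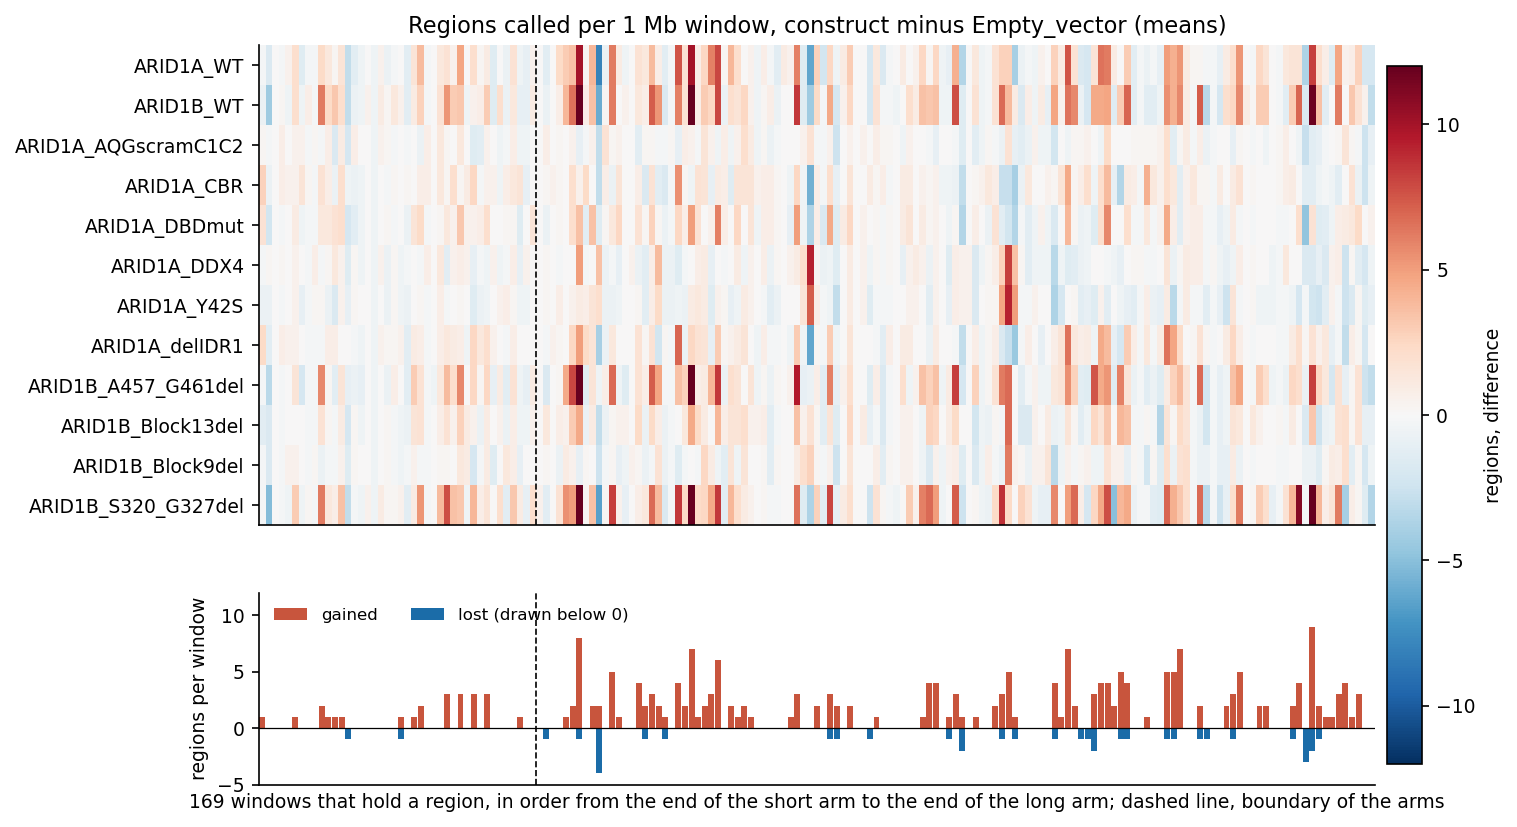
Upper panel, mean number of regions called in each 1 Mb window minus the mean of the empty vector, for 12 constructs (rows) and 169 windows in chromosome order (columns), red for more and blue for fewer, with colours saturated from a difference of 12. Lower panel, gained regions per window above 0 and lost regions below 0. The rows of both wild types, A457_G461del and S320_G327del share their red windows, most of them right of the dashed boundary of the arms. Right of it lie 127 of the 169 windows and 37 of the 42 higher ones.

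The gained region with the best ranks was chr5:141289387-141290345 on 5q, 959 bp wide. It ranked 475 and 1385 in ARID1A_WT and 728 and 818 in ARID1B_WT, with fold enrichments of 8.06, 7.21, 8.33 and 8.94. No empty vector library had a peak there, even in its whole list. Among altered constructs it ranked 376 and 135 in S320_G327del and 2182 and 1418 in A457_G461del. It ranked 4723 and 6433 in DBDmut, 5856 and 6732 in delIDR1, and 10553 and 14154 in Block13del. The remaining 5 constructs had ranks of 16613 or worse, and DDX4 had no peak. A rank describes a peak within its own list, since lists differ in length.

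Of the 10 gained regions named by the best mean rank, 8 lay on 5q and 2 on 5p. The short-arm regions were chr5:38783130-38783859, with ranks of 2377, 1467, 2209 and 504 in wild type, and chr5:27241664-27242659, with ranks of 4541, 3448, 2495 and 2543. The other 5q regions were chr5:158667112-158667886, chr5:178069025-178070221, chr5:71461946-71463019, chr5:81152789-81153991, chr5:111016247-111017342, chr5:57120045-57121706 and chr5:142466214-142467268. In 8 of the 10, no empty vector library had a peak even in the whole lists. DBDmut, delIDR1, A457_G461del, Block13del and S320_G327del called all 10 in both libraries. CBR called 6, DDX4 2, Block9del 1, and AQGscramC1C2 and Y42S called 0 in both libraries. With whole lists, Block9del called all 10 in both libraries as well, CBR 9, AQGscramC1C2 and Y42S 5 each, and DDX4 4. Ranked by fold enrichment, 8 of the 10 still met the definition.

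The region chr5:81152789-81153991 shows how close a gained region can be to the length limit. Its fold enrichments were 5.01, 5.27, 5.77 and 5.85 in wild type and 3.28, 2.88, 3.72 and 3.46 in empty vector, which do not overlap. Its ranks in empty vector were 19499, 20174, 21754 and 21580, just beyond the limit of 19433. Thus it was a peak in all 8 lists and counted as gained because of its rank.

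**Figure D4:**
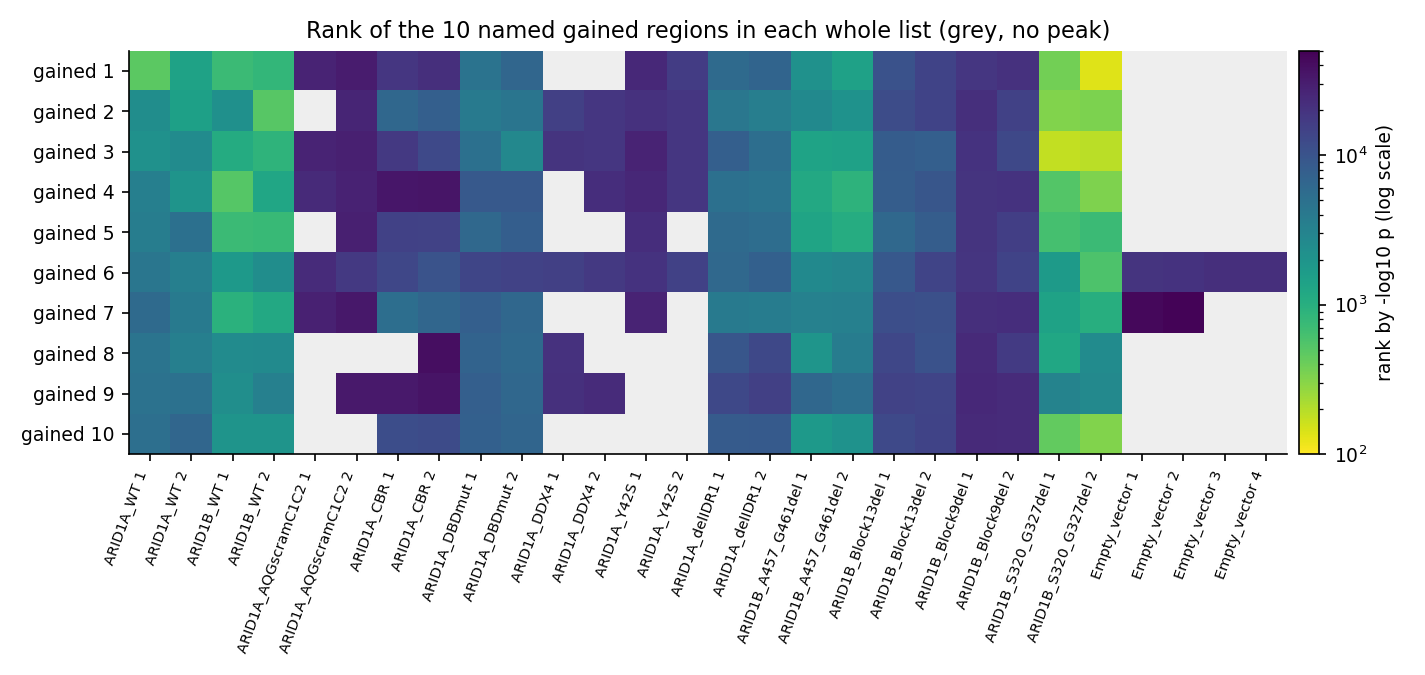
Rank by -log10 p of the 10 named gained regions (rows) in the whole list of each of the 28 libraries (columns), on a log colour scale with lighter colours for better ranks and grey where no peak was called. The columns of wild type, A457_G461del and S320_G327del are the lightest, and the empty vector columns are grey except for 4 libraries in the sixth row and 2 in the row beneath it.

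The lost region with the best ranks, chr5:172754383-172757261, was 2879 bp wide. Its fold enrichments were 2.51, 2.60, 2.98 and 3.17 in wild type and 3.22, 3.04, 3.94 and 3.35 in empty vector, and the groups overlapped. Its ranks were 33127, 29786, 29455 and 36437 in wild type and 10425, 10252, 10070 and 13323 in empty vector. The other named lost regions, all on 5q, were chr5:170589149-170590311, chr5:68628225-68629019, chr5:171056756-171057554 and chr5:116177536-116178837. All 5 had a peak in all 28 whole lists, and ranked by fold enrichment 1 of the 5 still met the definition. Among the regions called in every list, chr5:111092986-111094038 ranked 1 in all 4 wild-type libraries and 1, 1, 28 and 10 in empty vector. Next came chr5:118323443-118324801 and, on 5p, chr5:41903313-41904825, whose ranks stayed within 1 to 31 and 5 to 39 over the 28 libraries.

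Gained, lost and constant regions of chromosome 5 differed in width, as they did over the whole series. The median width was 1009 bp for gained, 806 bp for lost and 1586 bp for regions in all 28 lists, against 727 bp for the remaining 1360. Over all chromosomes the medians were 974 bp for gained, 844 bp for lost and 1517 bp for regions in all lists. A region is the union of its overlapping peaks, so one in more lists can be wider through merging alone. Gained regions lay a median of 68.1 kb from the nearest other gained region. The median distance to a gained region was 120.0 kb for lost regions, 156 kb for regions in all lists and 170 kb for the rest. The distance to the nearest region in all lists was 63.6 kb for gained regions and 45.9 kb for lost ones. These medians were not tested, since neighbouring regions are not independent.

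The altered constructs were compared by the percent of the 228 gained regions that each library called, a measure of which forms opened the same parts of the chromosome. S320_G327del called 94.7% and 96.1%, and A457_G461del called 84.2% and 86.8%. DBDmut called 48.7% and 46.9%, delIDR1 38.6% and 42.5%, and Block13del 37.3% and 35.1%. The next was CBR with 15.4% and 14.0%. Y42S called 3.51% and 7.02%, DDX4 3.51% and 6.14%, Block9del 2.19% and 5.26%, and AQGscramC1C2 1.75% and 1.32%. Thus constructs fell from nearly all to nearly none of the gained regions, and the libraries of a construct lay at most 3.95 percentage points apart.

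A wild-type or empty vector library was scored on a set chosen without it. By that measure ARID1A_WT called 89.4% and 87.4%, ARID1B_WT 92.7% and 91.9%, and empty vector libraries 0.870%, 0.437%, 0.437% and 0.437%. The other library of the same group still helped to choose the set, which favours wild type and lowers the empty vector. The 95% Wilson interval of an altered library reached at most 6.49 percentage points to either side, and covers counting error only. Neighbours in this order with overlapping values were DDX4, Y42S and Block9del, and AQGscramC1C2 stood just below them.

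The 4 ARID1B deletions averaged 55.2% ± 43.0 and the 6 ARID1A variants 19.1% ± 20.0 (SD over constructs), a difference of 36.1 percentage points. An exact two-sided permutation test over 210 splits gave p = 0.114, also after adjustment, so the difference was within the spread among constructs. The ARID1B deletions themselves spanned 3.73% to 95.4% and the ARID1A variants 1.54% to 47.8%. The 4 constructs with the lowest values had whole lists of 19433 to 36113 peaks and stand in runs D, E and F, as do Block13del, with 31383 and 33224 peaks, and A457_G461del. The part of list length and run in these values was not tested. In the whole lists DBDmut called 96.5%, delIDR1 92.3%, Block13del 87.3%, CBR 65.8% and Block9del 53.1% of the gained regions on average, against 13.4% in empty vector. AQGscramC1C2 called 23.5%, Y42S 15.8% and DDX4 10.1%.

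Recovery was also compared between chromosome 5 and the other chromosomes. Block13del called 36.2% on chromosome 5 and 30.4% elsewhere, and A457_G461del 85.5% and 81.4%. In the other direction CBR called 14.7% on chromosome 5 and 19.9% elsewhere, and delIDR1 40.6% and 45.3%. DDX4 called 4.82% on chromosome 5 and 7.57% elsewhere, and AQGscramC1C2 1.54% and 2.56%. DBDmut, S320_G327del, Block9del and Y42S differed by less than 1.0 percentage point. These differences rest on 2 libraries a construct and were not tested. On the short arm A457_G461del called 93.8% of 24 gained regions and DBDmut 58.3%, against 84.6% and 46.6% of the 204 on the long arm, and delIDR1 called 35.4% on 5p and 41.2% on 5q. With 24 regions, 1 region is worth over 4 percentage points on 5p.

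**Figure D5:**
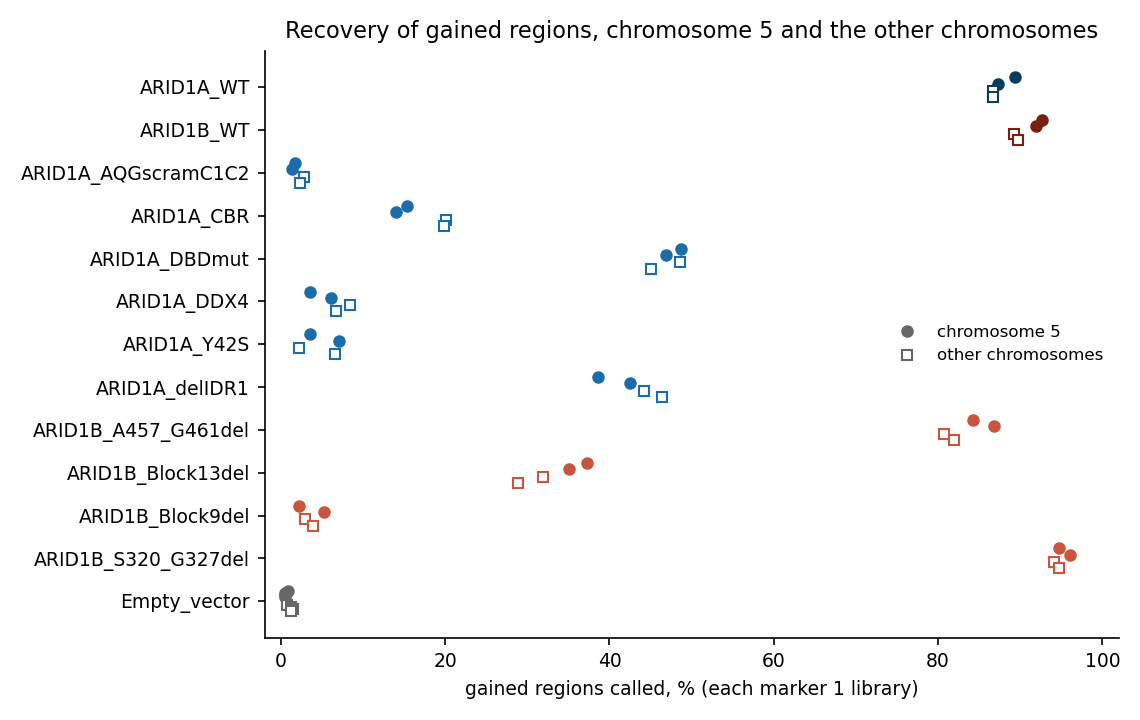
Percent of gained regions called by each library on chromosome 5 (filled circles) and on the other chromosomes (open squares), by construct, with empty vector in the bottom row. The order of constructs is led by S320_G327del and A457_G461del, and Block13del and CBR show the widest gaps between circles and squares, in opposite directions.

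Region by region, 62 of the 228 gained regions (27.2%) were called in both libraries of A457_G461del and S320_G327del and of no other altered construct. DBDmut joined these in 27 regions, Block13del in 13 and delIDR1 in 12. S320_G327del alone called 20, and 18 were called by DBDmut, delIDR1, A457_G461del, Block13del and S320_G327del together. There were 7 regions (3.07%) that no altered construct called in both libraries, and 0 that all 10 called, against 3.82% and 0.119% outside chromosome 5. Both libraries of S320_G327del called 212 of the 228, those of A457_G461del 185, DBDmut 97, delIDR1 77, Block13del 61, CBR 28, DDX4 8, Y42S 5, Block9del 4 and AQGscramC1C2 1.

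By window, S320_G327del called at least 1 gained region in both libraries in 83 of the 85 windows that held any, and A457_G461del in 78. DBDmut did so in 55, delIDR1 in 46, Block13del in 42 and CBR in 22. The count was 8 for DDX4, 4 for Y42S, 4 for Block9del and 1 for AQGscramC1C2. All gained regions of a window were called in 72 windows by S320_G327del, 52 by A457_G461del, 19 by DBDmut, 10 by delIDR1, 7 by Block13del and 3 by CBR. Partial recovery thus took in windows called in full as well as in part. For DBDmut and delIDR1, windows called in full included some with only 1 gained region. Such a window can only be called in full or not at all. DBDmut called all gained regions in 19 of the 55 windows where it called any, and delIDR1 in 10 of 46. Whether this differs from regions called independently of their window was not tested.

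The lost regions were called in the reverse order of constructs at the extremes, on chromosome 5 as elsewhere. S320_G327del called 6.76% of the 37 lost regions and A457_G461del 25.7%, while AQGscramC1C2 called 79.7% and Block9del 78.4%. Outside chromosome 5, S320_G327del called 6.38%, A457_G461del 20.6%, AQGscramC1C2 81.6% and Block9del 73.7%. Between them stood DBDmut with 55.4%, delIDR1 with 58.1%, CBR with 67.6%, Y42S with 68.9%, Block13del with 70.3% and DDX4 with 71.6%. Over all 2225 regions the similarity of calls to empty vector was lowest for S320_G327del, with a Jaccard index (regions called by both libraries over those called by either) of 0.443, and for ARID1B_WT with 0.492. It was 0.547 for A457_G461del and 0.563 for ARID1A_WT. For the other altered constructs it lay between 0.704 in delIDR1 and 0.818 in AQGscramC1C2, beside 0.810 among the empty vector libraries and 0.744 to 0.856 between replicates of the other groups.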

How the data were processed

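The authors deposited 1 peak list for each of the 28 libraries, not pooled by group. MACS2, SAMtools 0.1.19, Picard 2.8.0, Bowtie2, bcl2fastq and the build hg19 are named per the submitters' processing notes, and their options are not given in the sources used. The series design text describes CUT&Tag, whereas the titles name ATAC-seq, which was followed. The deposited fold enrichment is the ratio of a peak's signal to the caller's local background. It and the deposited -log10 p-value are the authors' values and were used for ranking and description inside one list, and the deposited -log10 q-value was left unused. The deposited score was not used. No read counts are given, so depth is unknown and the length of a list may follow it.

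Lists were limited to chromosomes 1 to 22 and X, ranked by -log10 p and trimmed to 19433 peaks. Merging, calling, windows and tests were computed with Python 3.11.15, numpy 2.4.6 and pandas 2.3.3, and checked on simulated lists. Coordinates are 1-based hg19. Differences in means over libraries or constructs were tested by exact two-sided permutation at 0.05, with Benjamini-Hochberg adjustment over 3 tests. Counts of gained, lost, higher and lower are descriptions beside the genome-wide percent. Identical peaks made up at most 0.301% of a list between replicates of a group.

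Named regions are 10 gained and 5 lost ones, taken by best mean rank in their defining lists, plus the 3 best found in all lists. Named windows are the 6 with most gained, the 4 with most lost and the 5 with most regions, ties by position. The members, the sets and these rules were chosen with earlier results of these data known. Gene lists, motifs and other sequence features were not analysed here, as the reference tables are of another build. Alternatives were whole, shortened, covered-length, equal-number, longer and fold-ranked lists, stricter overlap, regions in 3 or more lists, other window sizes, run and replicate blocks, each wild type alone and leaving out each library.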

Additional observations from a re-analysis of the deposited data

Results flagged for a closer look

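Among the 4 empty vector libraries, Empty_vector 1 called 0.870% of the chromosome 5 regions gained in a set chosen without it, against 0.437% in each of the other 3. Its gap to the others passed Dixon's 95% critical value for a group of 4, which any gap would do when the other 3 values are equal. The gap amounts to 1 region, 2 called of 230 against 1 of 229, so the flag says nothing about its size.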

How the results depend on the processing

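The difference in recovery between ARID1B deletions and ARID1A variants kept its sign and stayed without significance in all 36 alternatives, and leaving out each library gave 34.6 to 36.6 percentage points. The chromosome 5 share, 1.09 points in wild type over empty vector, fell to 0.324 when lists were ranked by fold enrichment (exact permutation p = 0.143). It kept its size of 1.09 with an exact permutation p of 0.111 in a replicate block and of 0.0833 in a run block. These are the smallest p that 9 and 24 splits allow, so neither block could pass the threshold or show a weaker difference. The difference in share was 0.715 for ARID1A_WT and 1.46 for ARID1B_WT against their own runs. Each had an exact permutation p of 0.333, the smallest that 6 splits allow. Leaving out each library gave 0.969 to 1.21. For ARID1A_WT and for Empty_vector 1 and 2, replicate 1 is run A and replicate 2 is run B. The comparison of ARID1A_WT with its own runs did not use this pairing. Same-numbered libraries had correlations of -0.0957 to 0.143 in their deviations. These rest on few libraries, some of them from different runs, so they cannot decide whether the numbers pair libraries. The 5p share, -0.884 points, turned to 0.950 in whole lists and 0.148 in fold-ranked lists, and leaving out each library gave -1.18 to -0.690. Counts moved more and are given as gained regions, lost regions, higher windows and lower windows. The counts were 1366, 6, 100 and 0 in whole lists and 56, 2, 20 and 1 in lists of 50% length. They were 77, 5, 14 and 0 in lists of equal covered length and 143, 60, 22 and 8 in fold-ranked lists. Whole lists had 57.1% higher windows on chromosome 5, against 53.0% genome-wide. At 50% length gained regions were 5.08%, against 2.52%, and higher windows 14.2%, against 5.76%. At equal covered length these were 4.77%, against 2.35%, and 9.21%, against 4.37%. In the same order of settings, lost regions were 0.0896%, 0.181% and 0.310%, against 0.0828%, 0.758% and 0.374%. With equal numbers of chromosome 5 peaks 77 regions were lost and 21 and 17 windows were higher and lower. Lists trimmed to 24527 peaks, a length chosen after seeing the data, gave 68 lost regions (2.42%, against 2.73% genome-wide). An overlap of 50% gave 17 lost regions (0.764%, against 1.01%) and 1 lower window (0.592%, against 2.27%). Windows of 2 Mb gave 23 higher (25.6%, against 13.5%) and windows of 0.5 Mb 9 lower (3.04%, against 6.17%). ARID1A_WT alone gave 149 lost regions and 23 lower windows (13.6%, against 23.6%). ARID1B_WT alone gave 442 gained, 159 lost, 74 higher (43.8%, against 24.9%) and 16 lower (9.47%, against 23.7%). Leaving out each library gave 229 to 261 gained and 41 to 56 lost regions, 43 to 50 higher and 5 to 8 lower windows. The 56 lost came without ARID1A_WT 1, and the 8 lower windows came without ARID1A_WT 1 or without Empty_vector 1.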

Other observations

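The window from 92 to 93 Mb on 5q, singled out after its values were seen, gave different counts in different libraries, here given beside the length of their lists. Of its 26 regions, ARID1A_DDX4 called 21 and 16 in the trimmed lists and ARID1A_Y42S 12 and 21. ARID1A_WT called 4 and 2 and ARID1B_WT 5 and 5, against 4, 7, 13 and 13 in empty vector. The 2 libraries with 21 calls had the shortest lists, of 21094 and 19433 peaks. Among empty vector libraries the 13 calls each stood with lists of 24527 and 28314 peaks, and the 4 and 7 calls with lists of 45227 and 49468. There were 4 calls in delIDR1 1 (43130 peaks), 9 in A457_G461del 1 (52711 peaks) and 8 in S320_G327del 2 (70269 peaks). In the whole lists every library called 21 to 26 of the 26 regions. In the window from 124 to 125 Mb, with 41 regions, Y42S called 25 and 29 and DDX4 27 and 25, against 15 to 20 in empty vector. A count of 25 was also reached by A457_G461del 1, Block13del 2 and Block9del 2, and wild-type libraries called 20 to 22. In the whole lists Y42S called 33 and 29 of the 41 and DDX4 30 and 30. Empty vector libraries called 29 to 35 and wild-type libraries 37 to 39 there. The part of list length in these counts was not tested.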
